A study of Callithrix jacchus with 8 samples.

Results

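The comparison described here sets the ES cell lines DPZcjESC1 and DPZcjESC2 of the common marmoset monkey against DPZcjESC3 and DPZcjESC4. DPZcjESC1 and DPZcjESC2 were each derived from an early morula that had not yet compacted, and according to the paper both embryos came from the same donor. By the karyotypes given in the paper, the male line DPZcjESC1 carries an additional copy of 2 chromosomes and the female line DPZcjESC2 an additional copy of 1 chromosome. DPZcjESC3, a female line from a compacted morula, and DPZcjESC4, a male line from an expanded blastocyst, had normal karyotypes and came from other donors, although the paper notes aberrations in some cells of DPZcjESC3. The former pair is called the aneuploid lines and the latter pair the euploid lines. Each line was derived from 1 embryo without any genetic manipulation, all lines were kept on irradiated mouse embryonic fibroblasts, and each group holds 1 male and 1 female line.

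All 8 RNA sequencing libraries of the series belong to this comparison, 4 on either side. They were made at passages 46 and 51 of DPZcjESC1, 36 and 37 of DPZcjESC2, 37 and 41 of DPZcjESC3, and 30 and 33 of DPZcjESC4. Of 32338 Ensembl gene identifiers (IDs) in the count tables, the 15781 IDs that reached 10 counts in 2 or more libraries were compared. The remaining IDs were too low to be compared at this depth. Because the lines that differ in ploidy also differ in the stage and the donor of the embryo, ploidy, stage and donor cannot be told apart. Passage number was not balanced either. Both passages of DPZcjESC1 were above those of the euploid lines (30 to 41), whereas those of DPZcjESC2 lay within this range. The passages of a line share an embryo, so that the main p-values and confidence intervals rest on libraries as units and not on embryos. In the pooled fit of single IDs, the spread includes that between the lines of a group. Where each line had its own term, as for the sets, it is the spread between passages only.

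A trisomic cell carries an additional copy of every gene on the affected chromosome. Most autosomal genes are transcribed from all copies present, so that the dose of a chromosome is usually reflected in the RNA from its genes, unless a gene is held at a set level by feedback. Gain of single chromosomes is a recurrent event in cultured primate pluripotent stem cells. Many proteins act as subunits of complexes, in which the products of a trisomic chromosome meet partners encoded elsewhere in the genome.

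Between 10615123 and 12885444 reads were counted on genes per library, so that 3 counts corresponded to 0.233 to 0.283 CPM (counts scaled to a common library total), a limit that covers counting error only. The share of unique hits outside annotated genes was 29.4 to 32.9%. The libraries expressed the genes that define ES cells: POU5F1, the central transcription factor of pluripotency, lay between 306 and 476 CPM, and LIN28A, an RNA-binding protein of early embryonic cells, between 190 and 243 CPM. Passage 46 of DPZcjESC1 stood apart from the other libraries, and some of the main results are also given without it.

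The first question was how far the transcriptome as a whole differs between the aneuploid and the euploid lines. Over the 15781 IDs, levels were taken as log2(CPM + 0.5) with TMM normalization, averaged per line, and the mean of the euploid lines was subtracted from that of the aneuploid lines. The median shift was 0.00 on the log2 scale. The quartiles were -0.17 and 0.17, and the 5th and 95th percentiles -0.49 and 0.52. By this measure 68.6% of the IDs were within 1.2-fold, 587 IDs were at least 1.5-fold higher and 501 at least 1.5-fold lower in the aneuploid lines, and 116 and 101 IDs reached 2-fold. The shifts were balanced in direction, with 50.4% above 0.

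These shifts were not larger than those between lines of the same group. The root mean square (RMS) of the shift was 0.33 between the aneuploid and the euploid lines. Without passage 46 of DPZcjESC1 it was 0.37. It was 0.61 between the aneuploid lines DPZcjESC1 and DPZcjESC2 and 0.49 between the euploid lines DPZcjESC3 and DPZcjESC4. A mean over 2 lines varies less than 1 line, and this lowers the first value. Between the passages of a line, the RMS was 0.91 for DPZcjESC1, 0.53 for DPZcjESC2, 0.69 for DPZcjESC3 and 0.45 for DPZcjESC4. These values compare single libraries, and all 4 were above 0.33.

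**Figure D1:**
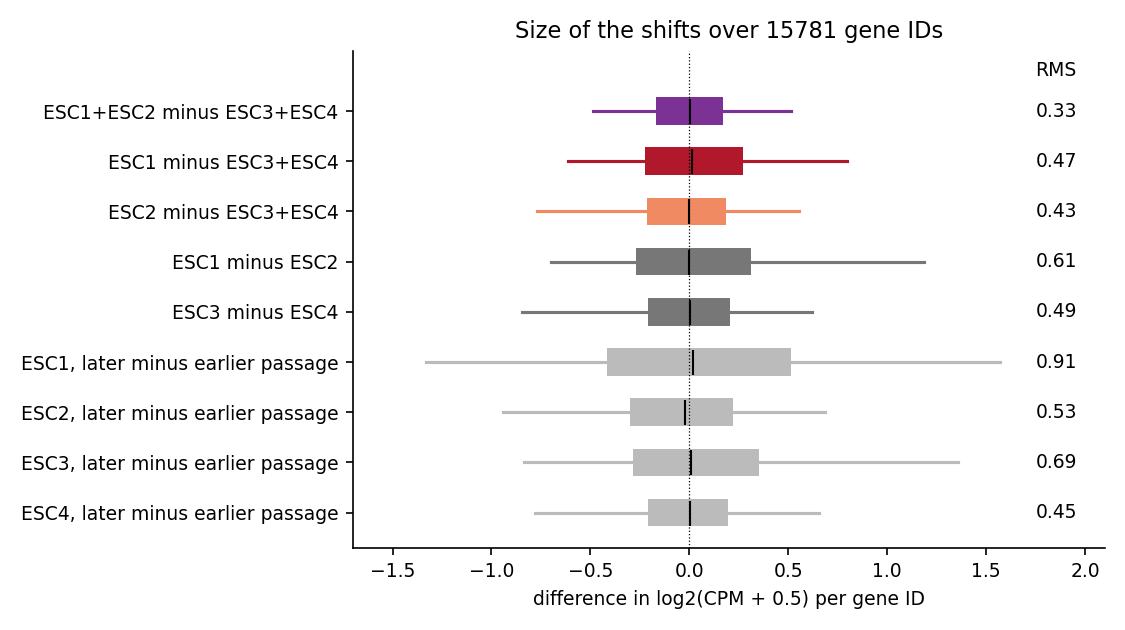
Shifts of 15781 gene IDs, as the difference in log2(CPM + 0.5), between groups, lines and passages (ESC1 to ESC4 stand for DPZcjESC1 to DPZcjESC4). Boxes reach from the lower to the upper quartile, lines reach from the 5th to the 95th percentile, ticks mark the median, and the root mean square (RMS) is given at the right. The aneuploid against euploid shift has an RMS of 0.33, and that between the passages of ESC1 has 0.91.

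Each aneuploid line was also compared with the euploid lines on its own. Against the mean of the euploid lines, DPZcjESC1 had an RMS of 0.47, with 1539 IDs at least 1.5-fold higher and 896 lower. DPZcjESC2 had an RMS of 0.43, with 701 IDs at least 1.5-fold higher and 1331 lower. Both values use the same euploid libraries and are therefore given side by side only. When each aneuploid line was set against the euploid line of its own sex, so that no library was shared, the shifts of DPZcjESC1 against DPZcjESC4 and of DPZcjESC2 against DPZcjESC3 had a Pearson correlation of 0.06 across the 15781 IDs and a Spearman correlation of 0.10. Among 10150 IDs with a mean of 10 CPM or more, they were 0.12 and 0.19. With the sexes crossed, the Pearson correlation was -0.29. The sex-matched Pearson correlation was -0.049 without passage 46 of DPZcjESC1 and -0.029 without passage 37 of DPZcjESC3, so that its sign rested on single libraries. These values describe IDs within 4 lines, and IDs are not independent replicates. Of all IDs, 186 were at least 1.5-fold higher and 151 at least 1.5-fold lower in both sex-matched pairs, whereas 296 moved 1.5-fold in opposite directions.

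The counts were then grouped by the position of the genes, to ask whether neighbouring genes shifted together. The count tables give no positions. Gene symbols could be attached to 10715 of the 15781 IDs, and 10486 of these could be placed by their symbol in a RefSeq gene table. That table is of another assembly than the one used for counting. It was used only to tell which genes lie on the same chromosome and in which order. This gave 23 sets of neighbouring genes with 96 to 1030 members. Each set is named here after a member, which is the most counted one except in the CDH1 and BTG2 sets. For each library, the share of the placed counts that fell in each set was calculated.

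In 21 of the 23 sets, the share in every library was within 0.90- to 1.07-fold of the mean of the euploid lines. A pair of sets left this range. The CDH1 set, with 225 members, was raised in both aneuploid lines, and the BTG2 set, with 192 members, was raised in DPZcjESC1 alone.

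The CDH1 set took up 2.86 and 2.51% of the placed counts at passages 46 and 51 of DPZcjESC1, and 3.00 and 2.92% at passages 36 and 37 of DPZcjESC2. It took up 2.02 and 2.02% in DPZcjESC3 and 2.24 and 2.23% in DPZcjESC4. All 4 aneuploid libraries thus lay above all 4 euploid libraries. In limma over the 23 sets, the share rose 1.33-fold in the aneuploid lines (95% confidence interval 1.25 to 1.41, adjusted p = 8.2e-05). It was 1.26-fold in DPZcjESC1 (1.17 to 1.35, limma adjusted p = 0.00078) and 1.39-fold in DPZcjESC2 (1.297 to 1.497, limma adjusted p = 0.00011). Without passage 46, the log2 difference of DPZcjESC1 was 0.24 (limma adjusted p = 0.00020). DPZcjESC1 reached 0.91 times the share of DPZcjESC2 (0.83 to 0.98), which did not pass the test over the 23 sets (limma adjusted p = 0.18). Between the euploid lines, DPZcjESC3 had 0.90 times the share of DPZcjESC4 (0.83 to 0.98, limma adjusted p = 0.38).

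The BTG2 set took up 2.62 and 2.55% of the placed counts at passages 46 and 51 of DPZcjESC1. In the other 6 libraries it took up between 1.71 and 1.86%. The share in DPZcjESC1 rose 1.45-fold over the euploid lines (1.37 to 1.55, limma adjusted p = 1.5e-05), and both its libraries lay above the other 6. Without passage 46, the log2 difference was 0.52 (limma adjusted p = 0.00017). DPZcjESC2 had 1.00 times the share of the euploid lines (0.94 to 1.07, limma adjusted p = 0.98). The difference between the aneuploid lines was itself past the threshold, with 1.45 times the share in DPZcjESC1 (1.35 to 1.56, limma adjusted p = 4.8e-05). In the pooled comparison of aneuploid with euploid lines, the same set gave 1.21-fold (1.15 to 1.27, limma adjusted p = 0.00029), a mean of 1 line that was raised and 1 line that was not.

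**Figure D2:**
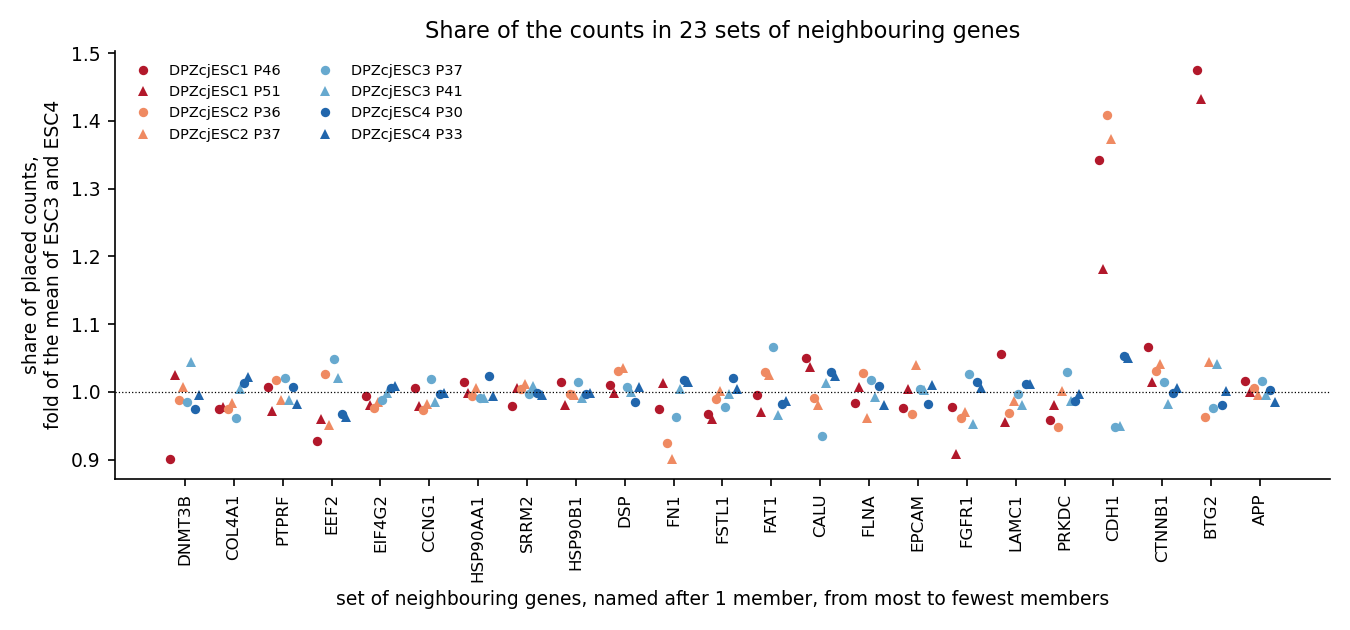
Share of the placed counts in each of 23 sets of neighbouring genes, as fold of the mean of the euploid lines ESC3 and ESC4, with 1 point per library (circles, earlier passage; triangles, later passage). The CDH1 set lies at 1.34, 1.18, 1.41 and 1.37 in the aneuploid libraries, the BTG2 set at 1.47 and 1.43 in ESC1, and the other 21 sets between 0.90 and 1.07.

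The FN1 set also had a difference past the threshold. Its share in DPZcjESC2 fell to 0.91 times that of the euploid lines (0.87 to 0.95, limma adjusted p = 0.014). This call was lost when the median of the members was used in place of the summed counts (limma adjusted p = 0.86) and without its 5 most counted members (limma adjusted p = 0.76). It was also lost without passage 37 of DPZcjESC2 (limma adjusted p = 0.15) and without passage 30 or 33 of DPZcjESC4 (limma adjusted p = 0.075 and 0.068).

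Along the CDH1 and BTG2 sets, the rise reached from the first to the last genes. The members with a mean of at least 5 CPM were taken in gene order in blocks of about 20. In DPZcjESC2, the median deviation from the euploid mean was between 0.43 and 0.63 on the log2 scale in the 9 blocks of the CDH1 set. In DPZcjESC1, it was between 0.16 and 0.47 in the same blocks, with 0.28 to 0.61 at passage 46 and 0.19 to 0.34 at passage 51. In the 8 blocks of the BTG2 set, it was between 0.47 and 0.68 in DPZcjESC1 and between -0.05 and 0.07 in DPZcjESC2. A median above 0.3 was reached in 6 of the 9 blocks of the CDH1 set in DPZcjESC1, and in 4 at its passage 51. In DPZcjESC2 it was reached in all 9, and in the BTG2 set in all 8 blocks of DPZcjESC1. Of the 405 blocks in the other sets, 0 had a line mean above 0.3 in either aneuploid line, and 2 were below -0.3 in DPZcjESC1. The highest was 0.29 in DPZcjESC1, which is above the lowest block of the CDH1 set in that line. Passage 46 of DPZcjESC1 alone had 14 of these blocks above 0.3 and 10 below -0.3, and passage 51 had 1 above and 0 below.

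**Figure D3:**
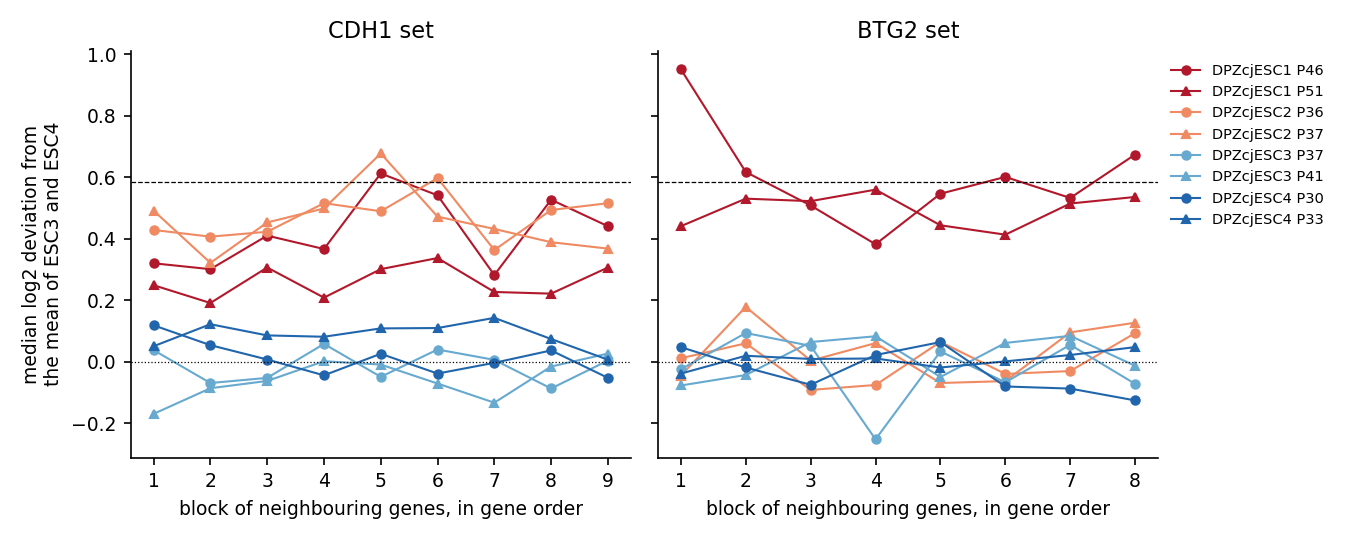
Median log2 deviation from the mean of ESC3 and ESC4 in blocks of about 20 neighbouring genes, in gene order, for each library. The dashed line marks 1.5-fold (0.58). All blocks of the CDH1 set lie above 0 in both aneuploid lines, from 0.19 to 0.68 in single libraries, whereas the BTG2 set is raised in ESC1 only.

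Of the CDH1 set, most but not all members were higher in the aneuploid lines. Of the 250 members in the files, 225 passed the filter, 25 did not and 3 of these had no count in any library. The median shift of the 225 members was 0.30 in DPZcjESC1 and 0.46 in DPZcjESC2, against 0.01 and 0.00 over all IDs. In DPZcjESC2, 115 members were between 1.3- and 1.7-fold higher than in the euploid lines and 12 were lower by the same range. In DPZcjESC1 there were 77 and 5, in the same order, and at its passage 51 alone 45 and 4. Across all 15781 IDs, 1385 and 1581 IDs of DPZcjESC2, and 1964 and 1759 of DPZcjESC1, were in these ranges. At least 2-fold higher were 9 members (4%) in DPZcjESC1, against 2.95% of all IDs, and 7 (3.11%) in DPZcjESC2, against 0.97%. In DPZcjESC2, 29 of the 225 members had a shift below 0, in DPZcjESC1 40, and 11 were below 0 in both.

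The members were also ranked by their mean level. In the 75 most abundant members, the median shift was 0.50 in DPZcjESC2 and 0.37 in DPZcjESC1. In the next 75 it was 0.48 and 0.31, and in the 75 least abundant 0.32 and 0.21.

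No single member of the CDH1 set was called at 2-fold and an adjusted p-value under 0.05 in edgeR, in any of the comparisons. Without the 2-fold minimum, the numbers of IDs called by edgeR were the same in all 5 comparisons. For 68 of the 225 members (30.2%), all 4 aneuploid libraries were above all 4 euploid libraries, against 2.35% of all tested IDs, and for 0 members they were all below, against 2.04%. An unadjusted p under 0.05 with higher levels in the aneuploid lines was found for 101 members (44.9%), against 3.6% of all IDs, and with lower levels for 0 members, against 2.67%. In DESeq2 without a fold minimum, 26 members passed an adjusted p of 0.05 in the upward direction and 0 downward, with 0.406% and 0.209% of all tested IDs called.

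Members of the CDH1 set that the naming rule picked out encode parts of basic cell machinery. The rule takes only IDs whose groups do not overlap, so that their separation is a condition of the choice and not a result. APRT, which salvages adenine for nucleotide synthesis, had 165 and 197 CPM in DPZcjESC1, 196 and 197 in DPZcjESC2, 120 and 119 in DPZcjESC3, and 106 and 119 in DPZcjESC4. The log2 fold change was 0.70 ± 0.10 (SE), which did not pass in edgeR (adjusted p = 0.15) and passed in DESeq2 without a fold minimum (adjusted p = 8.7e-07).

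PSMD7, a subunit of the lid of the proteasome, had 205 and 210 CPM in DPZcjESC1, 203 and 242 in DPZcjESC2, 126 and 145 in DPZcjESC3, and 127 and 149 in DPZcjESC4. The log2 fold change was 0.65 ± 0.11 (SE, edgeR adjusted p = 0.25), and DESeq2 without a fold minimum gave an adjusted p of 7.1e-05. CMTR2, which methylates the cap of mRNA, had 140, 146, 161 and 167 CPM in the aneuploid and 101, 97.6, 84.9 and 103 CPM in the euploid libraries. POLR2C, a subunit of RNA polymerase II, had 195, 129, 152 and 190 CPM in the aneuploid and 83.3, 92.0, 97.7 and 105 CPM in the euploid libraries. The log2 fold changes were 0.67 ± 0.11 and 0.82 ± 0.15 (SE), with edgeR adjusted p-values of 0.23 and 0.38 and DESeq2 adjusted p-values of 3.7e-05 and 0.0020 without a fold minimum.

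Further members were chosen after their values were seen, among those without overlap. CNOT1, the scaffold of the main deadenylase complex and the most abundant member, had 1060, 1016, 1113 and 1189 CPM in the aneuploid and 955, 776, 710 and 819 CPM in the euploid libraries. CTCF, which organizes chromatin loops, had 135, 121, 131 and 145 CPM against 109, 98.5, 101 and 109 CPM. VPS35, a subunit of the retromer that sorts endosomal cargo, had 263, 268, 247 and 280 CPM against 175, 203, 173 and 213 CPM. The deubiquitinase USP10 had 242 to 344 against 194 to 223 CPM. The edgeR adjusted p-values of these genes lay between 0.46 and 0.60.

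Other members did not follow the set, or not in both lines. CDH1 itself, which encodes the epithelial adhesion molecule E-cadherin, had 855 and 578 CPM in DPZcjESC1, 1659 and 1256 in DPZcjESC2, 1232 and 604 in DPZcjESC3, and 724 and 643 in DPZcjESC4. The groups overlapped, although both libraries of DPZcjESC2 were above every euploid library. The passages of DPZcjESC3 were far apart. CDH11, a cadherin of mesenchymal cells, had 554, 195, 187 and 257 CPM in the aneuploid and 163, 249, 777 and 590 CPM in the euploid libraries. MMP2, a protease of the extracellular matrix, had 1029 CPM at passage 46 of DPZcjESC1 and between 221 and 511 CPM in the other 7 libraries.

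Some members followed the set in 1 line only, or more in 1 line than in the other. GOT2, the mitochondrial aspartate aminotransferase, had 567 and 666 CPM in DPZcjESC2, 372 and 451 in DPZcjESC1 and 352 to 387 in the euploid lines. COX4I1, a subunit of cytochrome oxidase, had 181 and 137 CPM in DPZcjESC1, 118 and 125 in DPZcjESC2 and 87.8 to 120 in the euploid lines. RPL13, a protein of the large ribosomal subunit, had 288 and 240 CPM in DPZcjESC1, 193 and 214 in DPZcjESC2 and 152 to 187 in the euploid lines. RPL13 was thus above the euploid lines in both aneuploid lines, by less in DPZcjESC2. None of these single-gene differences passed an adjusted p of 0.05 in edgeR.

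**Figure D4:**
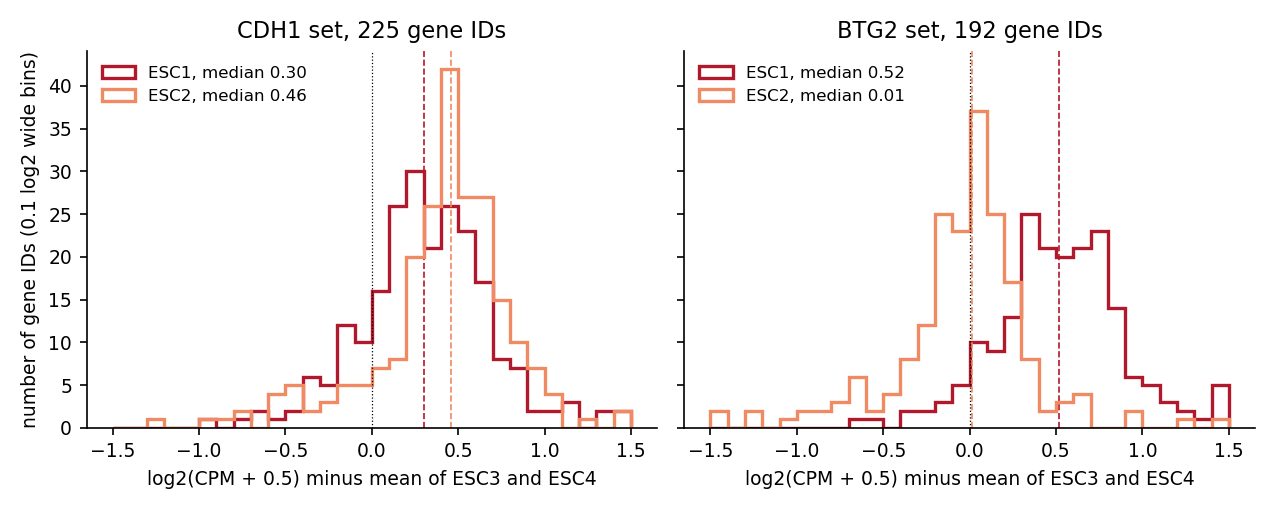
Shift of each member of the CDH1 set (225 IDs) and the BTG2 set (192 IDs) in ESC1 and ESC2, as log2(CPM + 0.5) minus the mean of the euploid lines, in bins of 0.1 with values beyond 1.5 in the outermost bins. Dashed lines mark the medians, at 0.30 and 0.46 for the CDH1 set and at 0.52 and 0.01 for the BTG2 set.

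The BTG2 set gave the same picture for DPZcjESC1 only. Of its 237 members in the files, 192 passed the filter, 45 did not and 11 of these had no count. The median shift was 0.52 in DPZcjESC1 and 0.01 in DPZcjESC2. In DPZcjESC1, 178 of the 192 members (92.7%) had a shift above 0, 89 were between 1.3- and 1.7-fold higher and 2 were lower by the same range. An unadjusted p under 0.05 with higher levels in DPZcjESC1 than in the euploid lines was found for 95 members (49.5%), against 6.29% of all IDs, and with lower levels for 1 member, against 4.11%. For DPZcjESC2 it was found for 3 members (1.56%) with higher levels, against 3.62% of all IDs, and for 6 with lower levels, against 3.07%. At an unadjusted p under 0.05, 82 members (42.7%) were higher in DPZcjESC1 than in DPZcjESC2, against 6.96% of all IDs. At this limit 0 members were lower, against 4.37%. Regardless of p, 170 of the 192 members (88.5%) had a shift above 0 between these 2 lines. Between the euploid lines, 6 members (3.1%) were higher in DPZcjESC3 at an unadjusted p under 0.05, against 2.16%, and 8 lower, against 2.96%. Again 0 members were called at 2-fold and an adjusted p under 0.05. The median shift in DPZcjESC1 was 0.57 in the 64 most abundant members, 0.47 in the next 64 and 0.55 in the 64 least abundant.

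The next genes were chosen after their values were seen. RAB3GAP2, which regulates small GTPases of vesicle transport, had 286 and 279 CPM in DPZcjESC1, 159 and 186 in DPZcjESC2, 143 and 165 in DPZcjESC3, and 152 and 155 in DPZcjESC4. NEK7, a mitotic kinase, had 209 and 152 CPM in DPZcjESC1 and 71.2 to 90.1 CPM in the other 6 libraries. ZNF281, a zinc finger transcription factor, had 238 and 207 CPM in DPZcjESC1 and 126 to 163 CPM in the other 6 libraries. The DPZcjESC1 libraries were the highest in all 3 genes, with log2 fold changes against the euploid lines of 0.88 ± 0.13, 1.15 ± 0.17 and 0.73 ± 0.13 (SE), and edgeR adjusted p-values of 0.088, 0.087 and 0.18.

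MDM4, an inhibitor of p53, had 159 and 117 CPM in DPZcjESC1 against 85.6 to 104 CPM in the other 6 libraries. HNRNPU, an abundant nuclear RNA-binding protein, had 2249 and 1352 CPM in DPZcjESC1, and passage 51 was below the 1462 CPM of DPZcjESC2 at passage 37. KDM5B, a histone demethylase, had 625 and 710 CPM in DPZcjESC1 and 666 and 669 CPM in DPZcjESC3, so that it was not set apart. ACTA1, the actin of skeletal muscle, reached 1591 CPM at passage 46 of DPZcjESC1 and 57.4 to 164 CPM in the other 7 libraries, including 79.4 CPM at passage 51 of the same line.

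In the comparison of all aneuploid with all euploid libraries by edgeR, 2 of the 15781 IDs (0.0127%) were called, both higher in the aneuploid lines, and 0 were called lower. At an unadjusted p under 0.05, there were 568 IDs higher and 421 lower. DESeq2 called 23 IDs higher and 21 lower at the same 2-fold limit. Neither of the 2 called IDs has a symbol in the name table. With passage order as a block, 3 IDs were called, all higher.

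ENSCJAG00000014902 had 15.2 and 48.5 CPM in DPZcjESC1, 18.7 and 44.8 in DPZcjESC2, 0.277 and 0.736 in DPZcjESC3, and 0.999 and 0.556 in DPZcjESC4. In the euploid lines it was thus close to the level of 3 counts. Its log2 fold change was 5.60 ± 0.54 (SE, edgeR adjusted p = 0.020), and this call was lost when passage 51 of DPZcjESC1, passage 37 of DPZcjESC2 or any single euploid library was left out, with adjusted p-values of 0.050 to 0.20. ENSCJAG00000012450 had 90.3 and 77.6 CPM in DPZcjESC1, 74.5 and 82.4 in DPZcjESC2, 22.6 and 15.6 in DPZcjESC3, and 17.0 and 16.4 in DPZcjESC4. Its log2 fold change was 2.18 ± 0.15 (SE, edgeR adjusted p = 0.0022), and the call remained when any single library was left out but not without the line DPZcjESC4 (edgeR adjusted p = 0.060). With the passages summed per line, 2 lines against 2, neither ID passed (edgeR adjusted p = 0.13 and 0.25).

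SLC38A4, an amino acid transporter outside the CDH1 and BTG2 sets, had 61.9 and 100 CPM in DPZcjESC1, 70.7 and 94.8 in DPZcjESC2, 36.1 and 39.4 in DPZcjESC3, and 36.3 and 39.1 in DPZcjESC4. It was chosen by the same rule, and the lack of overlap is part of the choice. The log2 fold change of 1.12 ± 0.17 (SE) did not pass in edgeR (adjusted p = 0.15) and passed in DESeq2 (adjusted p = 2.3e-05).

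In the direction of lower levels in the aneuploid lines, CTSH, a lysosomal protease, had 16.4 and 19.0 CPM in DPZcjESC1, 11.6 and 11.1 in DPZcjESC2, 42.1 and 37.1 in DPZcjESC3, and 32.4 and 27.5 in DPZcjESC4. The log2 fold change was -1.26 ± 0.22 (SE, edgeR adjusted p = 0.28). RETSAT, an enzyme of retinol metabolism, had 7.08 to 11.2 CPM in the aneuploid and 17.9 to 19.2 CPM in the euploid lines. PAPSS2, which makes the sulfate donor of the cell, had 9.90 to 14.9 against 20.0 to 30.2 CPM, and TAF1B, a factor of ribosomal RNA transcription, 17.3 to 23.9 against 31.2 to 46.8 CPM. The rule fixed the lack of overlap here too. None of these passed in the edgeR comparison of the groups. As an edgeR contrast of line means, CTSH passed (adjusted p = 0.037). ENSCJAG00000009902 had 2.83 to 9.26 against 16.9 to 28.4 CPM and ENSCJAG00000005084 had 12.3 to 23.2 against 30.5 to 38.3 CPM. The former passed as a contrast of line means (edgeR adjusted p = 0.018), and in DESeq2 at 2-fold CTSH and both of these IDs passed (adjusted p = 0.00032, 0.00049 and 0.0027).

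**Figure D5:**
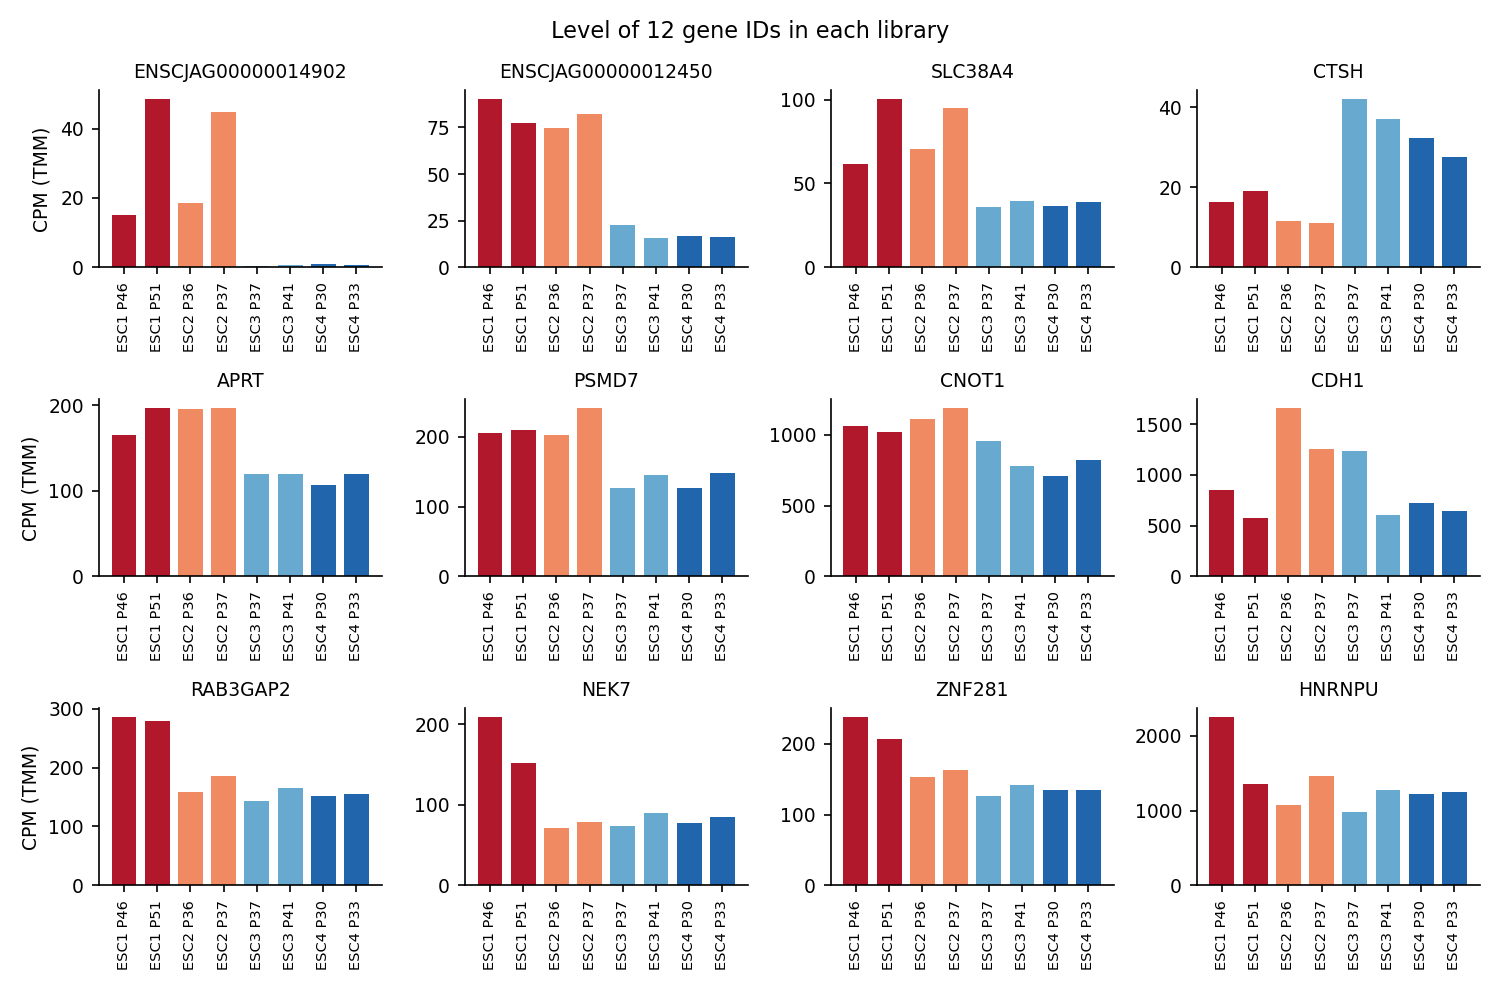
TMM-normalized CPM of 12 gene IDs in each library (bars; red and orange, aneuploid lines ESC1 and ESC2; light and dark blue, euploid lines ESC3 and ESC4). The upper row shows called or top-ranked IDs, the middle row members of the CDH1 set and the lower row members of the BTG2 set, where ESC1 is highest at both passages in RAB3GAP2, NEK7 and ZNF281.

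Per line, more IDs were called. DPZcjESC1 had 20 IDs (0.127%) higher and 12 (0.076%) lower than the euploid lines, and DPZcjESC2 had 12 (0.076%) higher and 6 (0.038%) lower. Both lines were compared with the same euploid libraries. Directly compared, DPZcjESC1 and DPZcjESC2 differed in 10 IDs, with 2 (0.0127%) higher and 8 (0.0507%) lower in DPZcjESC1. The euploid lines also differed in 10 IDs, with 5 (0.0317%) in either direction. These numbers rested on single libraries. For DPZcjESC1, 609 IDs were called without its passage 51, with 440 higher and 169 lower, 8 without its passage 46, and 5 to 10 when any library of another line was left out. For DPZcjESC2, 2 and 0 IDs were called without its passage 36 or 37, 1 without either passage of DPZcjESC4, and 10 and 11 without passage 37 or 41 of DPZcjESC3.

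The following called IDs with a symbol, except CTSH, lie outside the naming rule and were chosen after their values were seen. MSR1, a scavenger receptor of macrophages, had 50.3 and 34.1 CPM in DPZcjESC1, 69.7 and 72.2 in DPZcjESC2, 5.08 and 4.83 in DPZcjESC3, and 20.2 and 16.1 in DPZcjESC4. It rose in both aneuploid lines against the shared euploid libraries, by 2.15 ± 0.20 in DPZcjESC1 and 2.90 ± 0.20 in DPZcjESC2 on the log2 scale (SE, edgeR adjusted p = 0.016 and 0.0052). ZNF569, a zinc finger protein, had 0.942 and 0.627 CPM in DPZcjESC1 and 7.78 to 11.6 CPM in the other 6 libraries. It fell by 3.65 ± 0.33 in DPZcjESC1 (SE, edgeR adjusted p = 0.016) and differed from DPZcjESC2 directly (edgeR adjusted p = 0.015).

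CENPH, a protein of the inner kinetochore, which attaches chromosomes to the spindle, had 39.3 and 46.8 CPM in DPZcjESC1, 69.6 and 72.6 in DPZcjESC2, 114 and 94.5 in DPZcjESC3, and 100 and 110 in DPZcjESC4. It fell by 1.28 ± 0.16 in DPZcjESC1 (SE, edgeR adjusted p = 0.044). QPRT, an enzyme of NAD synthesis, had 104 and 135 CPM in DPZcjESC1 and 30.1 to 82.2 CPM in the other 6 libraries, a rise of 1.35 ± 0.17 against the euploid lines (SE, edgeR adjusted p = 0.047). In DPZcjESC2, TCAF1, a regulator of a cold-sensing ion channel, rose by 1.48 ± 0.14, with 105 and 113 CPM against 27.1 to 54.7 CPM in the euploid lines (edgeR adjusted p = 0.022). TKFC, which phosphorylates dihydroxyacetone, rose by 1.304 ± 0.15 in DPZcjESC2, with 53.2 and 48.4 CPM against 17.99 to 22.4 CPM in the other 6 libraries (edgeR adjusted p = 0.048). CTSH fell by 1.6 ± 0.19 in DPZcjESC2 (edgeR adjusted p = 0.0499). C18orf63, PIK3C2G, ZNF597 and DDX3X were called in 1 or both lines as well, at mean levels of 1.87 to 9.47 CPM, and C18orf63 and ZNF597 were at 0 in at least 1 library of DPZcjESC3.

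Genes of pluripotency, protein stress and p53 were looked up next. With 0.0127% of all IDs called between the groups, 0 calls among them carry no information on these lists. Of the 12 listed pluripotency genes, 10 had an ID and passed the filter, 6 of them with a positive and 4 with a negative fold change, and the median shift was -0.10 against 0.00 over all IDs. POU5F1 had 448 ± 33.7 CPM in the aneuploid and 406 ± 77.7 CPM in the euploid lines (SD, n = 4 libraries), and LIN28A 229 ± 14.3 and 219 ± 21.1 CPM. NANOG, another core factor of pluripotency, had 38.6 and 141 CPM in DPZcjESC1, 39.0 and 149 in DPZcjESC2, 42.2 and 159 in DPZcjESC3, and 55.2 and 111 in DPZcjESC4. It was lower at the earlier than at the later passage in all 4 lines, and the means of the groups were equal at 92.0 and 91.9 CPM. Of the genes for the naive or primed state, NR0B1 and TBXT passed the filter and neither was called. DPPA3, TERT, XIST, ZFP42 and FGF5 are not analysed here.

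Of the protein stress list, ATF4, a transcription factor of the integrated stress response, had 1485, 500, 931 and 1004 CPM in the aneuploid and 422, 642, 714 and 718 CPM in the euploid libraries. Its log2 fold change was 0.65 ± 0.31 (SE, edgeR adjusted p = 0.81) and the groups overlapped. HSPA5, the main chaperone of the endoplasmic reticulum, had 1662 ± 143 and 1865 ± 183 CPM, and SQSTM1, a receptor of selective autophagy, 143 ± 42.7 and 139 ± 10.1 CPM (SD, n = 4 libraries). DDIT3, a stress-induced transcription factor, had 21.9 CPM at passage 46 of DPZcjESC1 and 2.31 to 5.08 CPM in the other 7 libraries. Of the p53 targets, SESN1 had 22.8 ± 2.50 and 25.8 ± 4.16 CPM, and TP53I3 3.90 ± 0.916 and 6.12 ± 1.496 CPM (SD, n = 4 libraries; edgeR adjusted p = 0.91 and 0.79).

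Families of genes whose products act with members of these sets were compared as well. The 48 cytoplasmic ribosomal proteins had a median shift of 0.06 (0.20 in DPZcjESC1 and -0.06 in DPZcjESC2), the 50 mitochondrial ribosomal proteins of 0.00 and the 22 complex I subunits of 0.02. Of the proteasome, 24 subunits had a median of 0.01, and PSMD7 of the CDH1 set had the largest fold change among them. The 14 heat shock proteins had a median of -0.07 and the 7 chaperonin subunits one of -0.11. The median over all IDs was 0.00. These families had 0 called members, where 0.0127% of all IDs were called.

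The levels of markers of other cell types overlapped between the groups. The 5 fibroblast markers with an ID, COL1A1, COL1A2, COL3A1, DCN and PDGFRB, summed to 1077 to 5152 CPM in the aneuploid and 1947 to 4335 CPM in the euploid libraries. The 4 primitive endoderm markers summed to 62.3 to 311 CPM and 73.2 to 399 CPM, the 2 trophoblast markers to 5.01 to 126 CPM and 8.51 to 97.9 CPM, and the 2 neuroectoderm markers to 9.25 to 29.2 CPM and 6.16 to 28.3 CPM. None of these markers was at 0 in any library. The median shifts were -0.29, -0.83, 0.46 and -0.01, in this order, against 0.00 over all IDs. By line, the median was 0.56 in DPZcjESC1 and -0.97 in DPZcjESC2 for the fibroblast markers, and -0.14 and -1.42 for those of primitive endoderm. Passage 46 of DPZcjESC1 had the highest DCN (991 CPM) but the lowest PDGFRB (46.4 CPM). Passage 51 of this line had the highest COL3A1 (1760 CPM) and COL1A2 (1362 CPM). COL1A1 (2021 CPM) and PDGFRB (123 CPM) were highest at passage 41 of DPZcjESC3. In bulk RNA, more cells of a type and more RNA per cell cannot be told apart, and the part of these cell types in the shifts of single genes was not tested.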

How the data were processed

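The authors prepared TruSeq libraries, sequenced single reads of 50 bases on Illumina HiSeq, mapped these with STAR (2.3.0e) against the marmoset assembly of Ensembl, kept unique hits with SAMtools (0.1.18) and counted them per gene with HTSeq (0.6.1p1). The deposited values are raw counts per Ensembl ID, 1 table per library. Whether reads were counted by strand is not given in the sources used here, so overlapping and antisense genes, and near-identical copies, are uncertain.

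IDs reaching 10 counts in 2 or more libraries entered edgeR 4.0.16 (TMM, quasi-likelihood test, Benjamini-Hochberg adjustment over 15781 IDs), in R 4.3.3, and called at 2-fold and an adjusted p under 0.05. The pooled comparison had 1 group term, and per-line contrasts had 1 coefficient per line. DESeq2 1.42.0 was an alternative. Standard errors are the log2 fold change divided by the root of the F statistic. Shifts used log2(CPM + 0.5). The analysis was tested on simulated counts.

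Symbols came from a table of Ensembl names. Positions came from the RefSeq table of the assembly calJac240_pri, which lists 0 Ensembl IDs and was used only for neighbourhood. Symbols shared by several IDs were not placed. The log2 shares of the 23 sets were tested with limma 3.58.1 (1 coefficient per line, adjusted over the sets). This test, the blocks and the gene families were chosen after seeing the data, and all members, lists and tests with earlier results of these data known. Ploidy, sex and donor of the lines were taken from the paper and the stage from the labels.

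Named were the 10 IDs per direction with the largest fold change among called IDs, filled up by the smallest p, at a mean of at least 5 CPM and without overlap of the groups, plus listed genes. Of IDs without a symbol at most 2 per direction are printed. The earlier passages of the 4 lines deviated from their line means alike (correlation 0.15 to 0.47 over the 6 pairs of lines). Passage order was therefore used as a block in an alternative setting, from the data and not from the labels. The main fits had no term for it. Python 3.11.15 with pandas 2.3.3 was used for shifts, and matplotlib 3.10.9 for plots.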

Additional observations from a re-analysis of the deposited data

Results flagged for a closer look

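Within the 4 libraries of a group, 8 values of 138 tested were farther from the rest than Dixon's limit allows, where chance gives about 6.9. Passage 46 of DPZcjESC1 held 6 of them: KLF5 at 121 CPM, against 14.5 to 22.1 in the other aneuploid libraries, DDIT3 at 21.9 against 3.402 to 4.08, DCN at 991 against 82.0 to 191, GATA6 at 152 against 20.3 to 28.0, BCAR1 of the CDH1 set at 727 against 201 to 287, and APRT at 165 against 196 to 197 CPM. Among the euploid libraries, passage 30 of DPZcjESC4 had 106 CPM of APRT, against 119 to 120, and 1592 CPM of HSPA5, against 1937 to 1981.

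Between the aneuploid lines, the BTG2 set differed by 0.54 on the log2 scale (DPZcjESC1 minus DPZcjESC2, limma adjusted p = 4.8e-05), and the FN1 set by 0.12 (limma adjusted p = 0.049). The latter was lost in 8 of 12 other settings, the replicate block among them (limma adjusted p = 0.094).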

How the results depend on the processing

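The number of IDs called between the aneuploid and euploid lines (2) was 44 in DESeq2, 22 as a contrast of line means and 0 with passages summed per line, where 557 IDs had an unadjusted p under 0.05 and DESeq2 was not run. It was 1 to 9 when single libraries or lines were left out, 3 in the replicate block by passage order and 2 or 3 in the other settings. Dropping the fold minimum changed none of the 5 edgeR counts. For DPZcjESC1 (32) it was 132 in DESeq2, 71 without a filter, 19 with at least 1 CPM in at least 4 libraries and 5 to 609 without single libraries. For DPZcjESC2 (18) it was 133, 55 without a filter and 0 to 26, being 2 and 0 without its passage 36 or 37 and 1 without either passage of DPZcjESC4. Between DPZcjESC1 and DPZcjESC2 (10) it was 242, 75 and 3 to 537, and between DPZcjESC3 and DPZcjESC4 (10) 129, 46 and 5 to 17, in the same order. For the named IDs in the comparison of the groups and for the sets, the replicate block changed no call except that of the FN1 set between the aneuploid lines. Calls of single IDs per line were not checked one by one under this block. With it, the counts were 32, 26, 13 and 12, in the order above.

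The RMS shift of all IDs (0.33) was 0.22 with a prior of 5 CPM, 0.29 at a mean of at least 10 CPM, 0.44 at the earlier and 0.36 at the later passages, and 0.35 to 0.44 without single libraries. The percent of IDs shifted 1.5-fold (6.89) was 2.24, 4.32 and 14.3 with the same first 3 settings, and 7.83 to 13.8 without single libraries. The median shift (0.00) was -0.013 in plain CPM and -0.010 to 0.010 without single libraries. The correlation of the sex-matched shifts (0.06) was -0.265 at the later passages and -0.049 to 0.129 without single libraries, so that its sign depended on the libraries. The percent of IDs without overlap (4.39) was 28.2 and 32.3 with 1 passage per line, where 2 libraries face 2, and 5.77 to 9.02 without single libraries.

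The CDH1 set in both lines and the BTG2 set in DPZcjESC1 stayed past the threshold in all 12 settings tried, at 0.24 to 0.43 (DPZcjESC1) and 0.46 to 0.50 (DPZcjESC2) and 0.52 to 0.56 (BTG2 set) on the log2 scale without single libraries. All these settings were added after seeing the data, and none of them took the lines as the units. The difference of the CDH1 set between the aneuploid lines, -0.14, ranged from -0.236 to -0.0515 without single libraries and passed without passage 46 of DPZcjESC1 (limma adjusted p = 0.00046). That between the euploid lines, -0.15, ranged from -0.151 to -0.146 and passed without either library of DPZcjESC1 (limma adjusted p = 0.0055), which enter only the estimate of the spread. The BTG2 set in DPZcjESC2, 0.004, ranged from -0.0535 to 0.0621, and was -0.00264 without its 5 most counted members.

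At this depth IDs with fewer than 10 counts in 7 or more libraries were not compared, and 4 lines cannot separate ploidy from stage, donor or line. Passage number differed between the lines as well.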

Other observations

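Larger gene families were also looked up, some of whose members lie in the CDH1 and BTG2 sets. Of 201 zinc finger genes that passed the filter, 105 had a positive fold change in the aneuploid lines, with a median shift of 0.00, and of 215 solute carriers 105, with a median of -0.03. Of 38 collagens, 16 had a positive fold change. Their median was -0.12, with 0.32 in DPZcjESC1 and -0.27 in DPZcjESC2, and their summed level reached from 3222 to 9033 CPM in the aneuploid and from 4977 to 9119 CPM in the euploid libraries. Of 17 cadherins that passed the filter, 7 belong to the CDH1 set, and 0 were called.

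KLF4, a transcription factor of pluripotency, had 13.6, 11.9, 16.3 and 25.1 CPM at the earlier and 103, 60.7, 83.6 and 75.9 CPM at the later passages of DPZcjESC1 to DPZcjESC4. The spread between passages was larger than the difference between the aneuploid (47.2 ± 43.3 CPM) and euploid lines (50.2 ± 34.4 CPM, SD, n = 4 libraries). TBXT, a marker of early mesoderm, had 127 CPM at passage 30 and 36.4 CPM at passage 33 of DPZcjESC4, against 5.91 to 28.1 CPM in the other 6 libraries.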
